A study of Mus musculus with 12 samples.

Results

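Proliferation and mitosis genes, 36 in all, were followed in livers of mice with carbon tetrachloride (CCl4) fibrosis given silibinin or phloridzin. They are a list of named genes with roles in the cell cycle, 36 of the 24311 genes with a value in the deposited table. The list holds 16 genes of the G1/S transition and DNA replication (Ccnd1, Ccne1, Ccne2, Cdc25a, Cdk2, E2f1, Mcm2, Mcm3, Mcm4, Mcm5, Mcm6, Mcm7, Pcna, Rrm1, Rrm2 and Tyms). The other 20 act in G2 and mitosis (Mki67, Top2a, Ccna2, Ccnb1, Ccnb2, Cdk1, Cdc20, Aurka, Aurkb, Plk1, Bub1, Bub1b, Birc5, Kif11, Kif20a, Nusap1, Tpx2, Cenpe, Ube2c and Pkmyt1).

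Most hepatocytes of an adult liver rest outside the cell cycle and can enter it again after injury or loss of tissue. Entry is driven by D-type and E-type cyclins with their kinases, and E2F factors turn on the genes of DNA replication. Later in the cycle the B-MYB and FOXM1 complexes turn on mitotic genes, many of which carry a CCAAT box and a cell cycle genes homology region (CHR), through which the DREAM complex holds them silent in resting cells.

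RNA of whole livers from male C57/BL6N mice was sequenced, with 3 livers in each of 4 groups. Control mice received no CCl4, and model mice received CCl4 alone. The silibinin group and the phloridzin group, the latter at the high dose of the study, received CCl4 and, from week 5, the drug. CCl4 was dissolved in olive oil and injected into the peritoneum in doses of 5 mL/kg over 8 weeks, 2 doses each week. Each of the 12 livers gave a separate library, and replicate numbers do not pair livers across groups.

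Levels are FPKM of the deposited table, fragments per kilobase of transcript scaled to library size, summed over the transcripts of a gene. The libraries held about 105100000 to 109600000 fragments in the control group and 83600000 to 101500000 fragments in the model group. Those of the silibinin group held 106600000 to 110800000 fragments, and those of the phloridzin group 98400000 to 104800000 fragments. Alb, the albumin gene and the most abundant hepatocyte marker, stood between 10970.5 and 29357 FPKM over the 12 livers and none of 6 hepatocyte markers was listed at 0. All 36 genes passed the filter for the test, a mean of at least 0.1 FPKM. A gene was called when its limma test gave a Benjamini-Hochberg adjusted p under 0.05 with at least a doubling or halving, a log2 fold change beyond 1 or -1, with 0.1 FPKM added before the logarithm and 16397 genes tested.

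Phloridzin replicate 1 stood apart from the other livers of its group. The summed level of the 20 mitotic genes was 289 FPKM in phloridzin replicate 1, 36.1 FPKM in replicate 2 and 29.9 FPKM in replicate 3. In the same order, the 16 G1/S genes summed to 184, 64.1 and 49.0 FPKM. This liver had the highest value of all 12 for 20 of 20 mitotic genes and for 11 of 16 G1/S genes. Its ratio to the mean of replicates 2 and 3 had a median of 8.2 over the mitotic genes, between 4.55 and 13.1 (Aurka). Over the G1/S genes the median ratio was 2.87, between 1.18 (Cdc25a) and 10 (Rrm2). Across all genes tested, 1191 of 16397 (7.26%) were more than 2-fold above both other livers of the group in phloridzin replicate 1. The same share was between 1.83% and 2.96% in the other 11 livers. The numbers of called genes in the phloridzin comparisons are therefore given with and without this liver.

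Markers of other cells also differed in phloridzin replicate 1. The 6 stellate cell and myofibroblast markers summed to 199, 68.7 and 53.7 FPKM in the 3 phloridzin livers, with Col3a1 the most abundant at 97.6, 32.5 and 24.1 FPKM. The 7 lymphocyte markers summed to 10.5, 4.99 and 4.74 FPKM, with Nkg7 the most abundant at 3.49, 1.7 and 1.4 FPKM. Both sums were highest in replicate 1, and no gene of either list was at 0 in a phloridzin liver. The median log2 difference from the control mean was 1.5, 1.52 and 0.86 over the stellate cell and myofibroblast markers, so not highest in replicate 1. Over the lymphocyte markers it was 1.48, 0.72 and 0.61. The 5 cholangiocyte markers summed to 52.7, 26.8 and 25.7 FPKM, with Spp1, the most abundant, at 46.7, 22.0 and 18.3 FPKM. The 5 erythroid markers went the other way and summed to 216, 573 and 693 FPKM, with Hbb-bs, a beta globin, at 94.1, 469 and 597 FPKM. The 6 hepatocyte markers summed to 21223, 27877 and 19963 FPKM, so the sum of replicate 1 lay between the others. The 6 macrophage markers summed to 478, 429.6 and 221 FPKM with Lyz2 the most abundant, and the 5 endothelial markers to 41.8, 56.5 and 40.3 FPKM with Kdr the most abundant. The 5 neutrophil markers summed to 23.9, 83.1 and 39.7 FPKM with S100a8 the most abundant, and S100a9 and Ly6g were listed at 0 in replicate 1. The part of these cells in the levels of the proliferation genes was not tested.

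**Figure D1:**
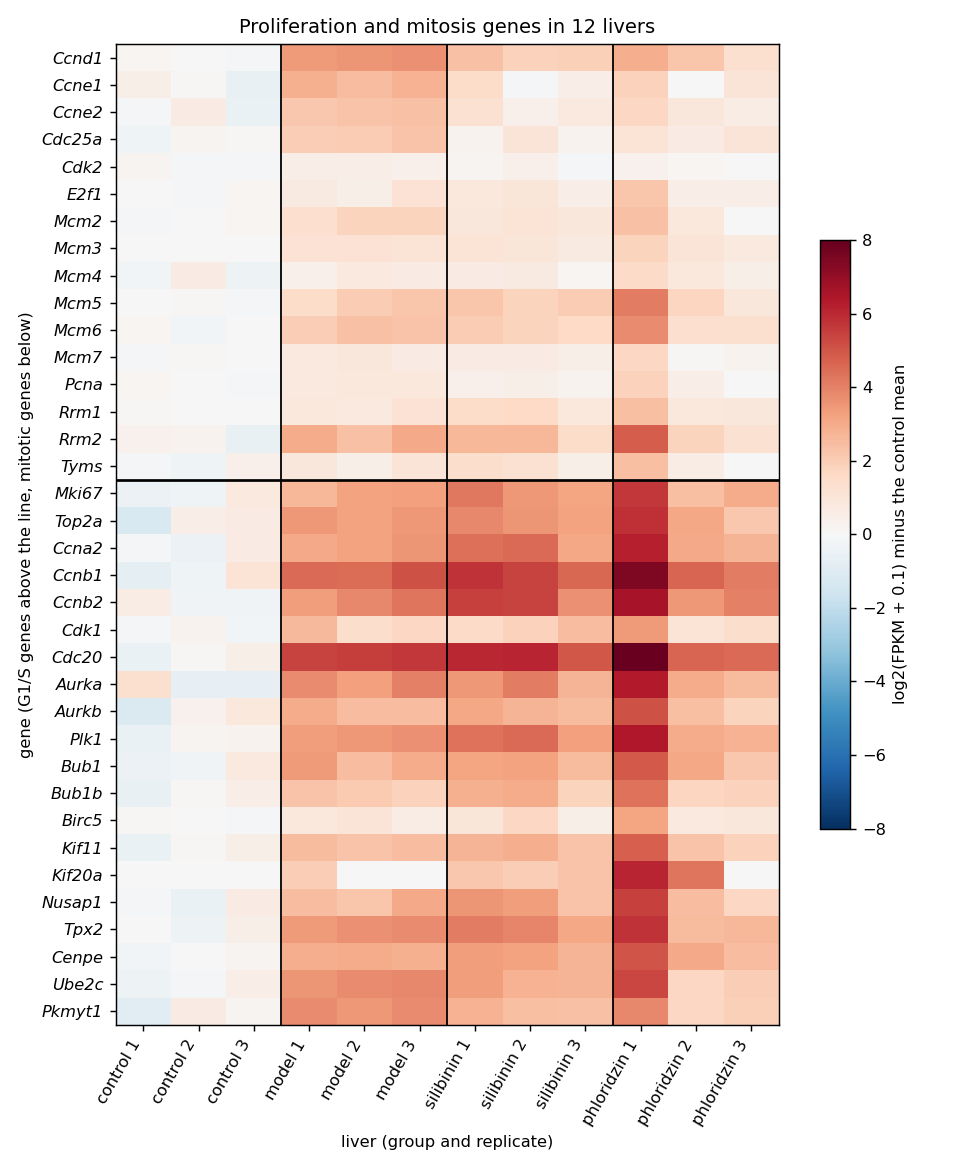
Level of each of the 36 genes (vertical axis) in each of the 12 livers (horizontal axis), as log2(FPKM + 0.1) minus the mean of the 3 control livers. The 20 mitotic genes below the line stand highest in phloridzin replicate 1.

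The model group against the control group asks what repeated CCl4 did to the cell cycle genes. Of the 36 genes, 27 rose, while 17.9% of all genes tested were called higher. By limma 0 of them fell, with 0 lower at an unadjusted p under 0.05 and 0 lower by voom. The G1/S genes rose in 9 of 16 cases, with a median log2 fold change over all 16 of 1.38. The mitotic genes rose in 18 of 20 cases, with a median of 3.17, or 3.26 over the 19 genes without Kif20a, which was listed at 0 in all 3 controls. By voom the numbers called higher were alike, 7 of 16 G1/S genes and 7 of 20 mitotic genes. Over all genes tested the median log2 fold change was 0.47, so the whole scale of this comparison lay above 0. After scaling of FPKM by median ratios, the median of all genes became 0.04, the median of the G1/S genes 0.94 and that of the mitotic genes 2.78, and 21 of the 36 were called. The values of the model livers lay wholly above those of the control livers for 34 of 36 genes, against 43.1% of all genes tested. In bulk RNA, more cells of a type and more RNA per cell cannot be told apart.

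Among the G1/S genes, Ccnd1 encodes cyclin D1, which starts the passage out of rest. Ccnd1 (chr7:144929931-144939925, minus strand, mm10) stood at 3.12, 2.73 and 2.47 FPKM in the control livers and at 30.8, 32.8 and 35.8 FPKM in the model livers. All model livers were far above all controls, with group means of 33.1 ± 2.53 and 2.77 ± 0.332 FPKM (SD, n = 3). The log2 fold change was 3.54 (SE 0.32) with a limma Benjamini-Hochberg adjusted p of 8.3e-05. Ccne1, for cyclin E1, read 0.304, 0.21 and 0.0913 FPKM in the controls and 1.95, 1.51 and 1.89 FPKM in the model. Ccne2, for cyclin E2, read 0.367, 0.726 and 0.268 FPKM in the controls and 2.23, 2.48 and 2.5 FPKM in the model. Neither cyclin E gene had a control liver that reached the lowest model liver. They rose by 2.70 (SE 0.51, limma, Benjamini-Hochberg adjusted p = 0.0031) and by 2.26 (SE 0.36, adjusted p = 0.0013) on the log2 scale. The Ccne2 value rests on the sum of 6 transcripts, and with only the transcript of highest mean, 38.5% of the sum, its log2 fold change was -0.65.

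Cdc25a encodes a phosphatase that activates the kinases partnered by cyclins E and A. It stood at 0.728, 1.11 and 0.992 FPKM in the control livers and at 3.86, 4.04 and 5.0 FPKM in the model livers, with no overlap. It rose by 2.09 (SE 0.26, limma, Benjamini-Hochberg adjusted p = 0.00037) on the log2 scale. Mcm6, a subunit of the replicative helicase, read 1.34, 0.98 and 1.23 FPKM in the controls and 4.91, 6.3 and 6.13 FPKM in the model. It rose by 2.20 (SE 0.53, adjusted p = 0.01 by limma after Benjamini-Hochberg), and the groups did not overlap. Promoters of both genes, from RefSeq on GRCm38.p6 with 250 bases before and 50 after the gene's start, are printed 5′ to 3′ because Cdc25a later fell with both drugs and Mcm6 held the highest number of E2F-like words printed here. Capitals mark the E2F-like words and CCAAT on either strand. The Cdc25a window is chr9:109875329-109875628 on the plus strand and the Mcm6 window chr1:128359656-128359955 on the minus strand.
Cdc25a: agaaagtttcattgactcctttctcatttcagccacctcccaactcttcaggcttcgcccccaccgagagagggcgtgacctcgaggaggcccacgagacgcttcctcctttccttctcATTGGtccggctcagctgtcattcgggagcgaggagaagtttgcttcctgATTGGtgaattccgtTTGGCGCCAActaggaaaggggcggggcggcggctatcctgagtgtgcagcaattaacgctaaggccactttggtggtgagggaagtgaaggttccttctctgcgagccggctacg
Mcm6: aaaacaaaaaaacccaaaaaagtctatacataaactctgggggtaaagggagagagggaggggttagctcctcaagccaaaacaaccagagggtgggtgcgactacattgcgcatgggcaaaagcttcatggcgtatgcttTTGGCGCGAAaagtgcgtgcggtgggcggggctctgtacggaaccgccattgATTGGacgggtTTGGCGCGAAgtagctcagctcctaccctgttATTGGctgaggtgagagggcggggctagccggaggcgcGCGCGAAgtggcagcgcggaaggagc

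Of the other G1/S genes, Rrm2, a subunit of ribonucleotide reductase, had a log2 fold change of 2.77 (SE 0.77, limma, Benjamini-Hochberg adjusted p = 0.02). Its levels were 1.5, 1.42 and 0.754 FPKM in the controls and 9.74, 6.31 and 10.3 FPKM in the model livers, again apart. The helicase genes Mcm5, Mcm2 and Mcm3 also rose, by 1.90, 1.63 and 1.12 on the log2 scale. The 7 G1/S genes that were not called were Rrm1, Pcna, Tyms, E2f1, Mcm7, Mcm4 and Cdk2, with log2 fold changes between 0.48 (Cdk2) and 0.92 (Rrm1). Pcna, the sliding clamp of DNA polymerases and the most abundant of the 36 genes, read 14.7, 13.1 and 11.7 FPKM in the controls and 23.0, 23.7 and 23.4 FPKM in the model. These values did not overlap, with a log2 fold change of 0.83 (SE 0.35) and a limma Benjamini-Hochberg adjusted p of 0.094.

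Mitotic genes began from levels near 0 in the control livers. Cdc20, the activator that directs the anaphase-promoting complex to its targets, read 0.0424, 0.118 and 0.183 FPKM in the controls and 8.61, 9.34 and 10.1 FPKM in the model. The log2 fold change of Cdc20, 5.51 (SE 0.75, limma, Benjamini-Hochberg adjusted p = 0.00056), was the largest of the 36. Ccnb1, for cyclin B1, read 0, 0.0297 and 0.244 FPKM in the controls and 3.75, 3.53 and 5.47 FPKM in the model livers. It rose by 4.70 (SE 0.77, limma, Benjamini-Hochberg adjusted p = 0.0015), with every model liver above every control. Mki67, the gene of the proliferation marker Ki-67, read 0.0567, 0.0642 and 0.273 FPKM in the controls and 1.26, 1.91 and 1.98 FPKM in the model livers. It rose by 3.07 (SE 0.71, limma, Benjamini-Hochberg adjusted p = 0.0085), again with no overlap between the groups. Top2a, for the topoisomerase that untangles sister chromatids, read 0.126, 0.664 and 0.709 FPKM in the controls and 5.67, 4.69 and 5.53 FPKM in the model. It rose by 3.38 (SE 0.79, limma, Benjamini-Hochberg adjusted p = 0.0089), and all model livers lay above all controls. Plk1, a kinase of mitotic entry and spindle assembly, read 0.0216, 0.109 and 0.12 FPKM in the controls and 1.69, 1.85 and 2.09 FPKM in the model. It rose by 3.47 (SE 0.8, limma, Benjamini-Hochberg adjusted p = 0.0081), with the groups apart.

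Promoters of Cdc20, Plk1 and Top2a are printed because each holds both CCAAT and a CHR word, the pair of motifs known from mitotic genes. Capitals mark these words on either strand. In the same build, source and window as above, they are chr4:118437294-118437593 on the minus strand for Cdc20, chr7:122159185-122159484 on the plus strand for Plk1 and chr11:99024140-99024439 on the minus strand for Top2a.
Cdc20: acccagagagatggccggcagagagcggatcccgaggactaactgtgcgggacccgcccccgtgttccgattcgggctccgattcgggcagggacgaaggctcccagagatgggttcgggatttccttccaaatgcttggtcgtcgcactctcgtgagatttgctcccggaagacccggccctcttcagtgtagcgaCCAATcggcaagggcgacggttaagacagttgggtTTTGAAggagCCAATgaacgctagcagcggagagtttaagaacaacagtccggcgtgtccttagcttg
Plk1: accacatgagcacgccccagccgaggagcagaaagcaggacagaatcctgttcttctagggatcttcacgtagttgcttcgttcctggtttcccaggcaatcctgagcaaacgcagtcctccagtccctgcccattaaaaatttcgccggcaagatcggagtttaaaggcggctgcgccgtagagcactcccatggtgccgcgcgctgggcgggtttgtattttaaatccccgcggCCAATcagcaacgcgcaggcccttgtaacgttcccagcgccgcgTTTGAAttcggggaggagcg
Top2a: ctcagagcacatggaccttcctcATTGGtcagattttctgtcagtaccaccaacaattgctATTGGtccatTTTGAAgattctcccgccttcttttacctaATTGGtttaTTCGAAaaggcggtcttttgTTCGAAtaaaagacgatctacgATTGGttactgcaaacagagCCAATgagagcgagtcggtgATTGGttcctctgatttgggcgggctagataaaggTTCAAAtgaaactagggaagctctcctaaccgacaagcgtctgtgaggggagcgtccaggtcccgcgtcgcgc

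Pkmyt1, for a kinase that holds Cdk1 inactive before mitosis, read 0.0373, 0.285 and 0.183 FPKM in the controls and 3.31, 2.57 and 3.3 FPKM in the model. It rose by 3.67 (SE 0.54, limma, Benjamini-Hochberg adjusted p = 0.00083) without overlap. Ube2c, for the ubiquitin-conjugating enzyme of the anaphase-promoting complex, read 0.157, 0.229 and 0.396 FPKM in the controls and 3.92, 4.59 and 4.81 FPKM in the model livers. It rose by 3.70 (SE 0.77, limma, Benjamini-Hochberg adjusted p = 0.0049), also without overlap. Cdk1, the kinase that drives mitosis, read 0.351, 0.482 and 0.307 FPKM in the controls and 2.73, 1.16 and 1.38 FPKM in the model. Model replicate 1 was the highest, the groups did not overlap, and Cdk1 rose by 1.87 (SE 0.56, limma, Benjamini-Hochberg adjusted p = 0.026). The other called mitotic genes, with log2 fold changes between 2.08 (Bub1b) and 3.82 (Ccnb2), were Ccnb2, Aurka, Tpx2, Ccna2, Bub1, Cenpe, Aurkb, Nusap1, Kif11 and Bub1b. Birc5, for the survivin of the chromosomal passenger complex, had a log2 fold change of 0.81 (SE 0.55) and a limma Benjamini-Hochberg adjusted p of 0.28, and was not called. Its values were 0.225, 0.205 and 0.168 FPKM in the controls and 0.429, 0.519 and 0.342 FPKM in the model livers, without overlap. Kif20a, a kinesin of cytokinesis, was listed at 0 in all controls and in model replicates 2 and 3, and at 0.298 FPKM in model replicate 1.

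Leaving out 1 liver at a time left 21 to 27 of the 36 genes called in this comparison. Rrm2 was not called without control replicate 3 (log2 fold change 2.48), model replicate 1 (2.68) or model replicate 3 (2.64), and Cdk1 was not called without control replicate 1 (1.84), control replicate 3 (1.76) or model replicate 1 (1.52). Mcm2 was not called without control replicate 1 (1.59), control replicate 2 (1.60), model replicate 2 (1.57) or model replicate 3 (1.56). Mcm5 was not called without any 1 of the 9 control, model and silibinin livers, at 1.75 to 2.13. Aurkb was not called without control replicate 1 (2.06), model replicate 1 (2.48) or model replicate 2 (2.72). Bub1b (1.77 to 2.18) and Nusap1 (2.28 to 2.72) were not called without control replicate 1, control replicate 2 or any 1 model liver. On fragment numbers with voom, 14 of the 36 were called, and with a pseudocount of 1 FPKM 13 were.

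**Figure D2:**
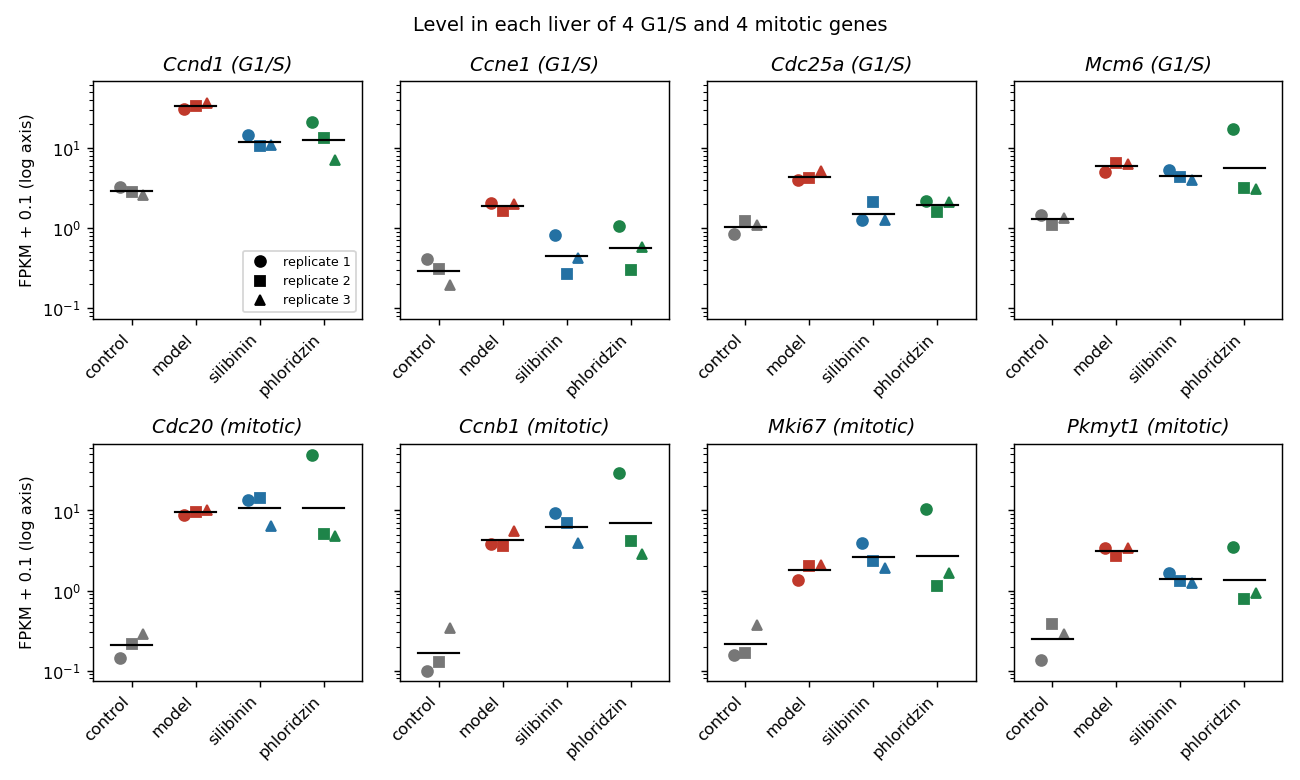
FPKM + 0.1 on a log axis (vertical) in each liver by group (horizontal) for 4 G1/S genes and 4 mitotic genes, with a symbol for each replicate and a line at the mean of the logarithms (n = 3). Every CCl4 liver lies above the controls for Ccnd1, Mcm6, Cdc20, Ccnb1, Mki67, Pkmyt1 and Cdc25a, while Ccne1 with a drug overlaps the controls.

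Markers of other liver cells differed between the same 2 groups, where 17.9% of all genes tested were called higher and 1.64% lower. The 6 stellate cell and myofibroblast markers summed to 15.7, 11.1 and 12.2 FPKM in the controls and to 137, 111 and 145 FPKM in the model, with 3 of 6 called higher (Col1a1, Col3a1 and Lrat). Col3a1, the most abundant, read 3.98, 3.21 and 3.78 FPKM in the controls and 68.8, 54.0 and 61.9 FPKM in the model. The 6 macrophage markers summed to 67.3, 124 and 115 FPKM and to 259, 389.8 and 380 FPKM, with 3 of 6 called higher (Gpnmb, Lyz2 and Adgre1). Lyz2 was the most abundant of these, and Gpnmb was listed at 0 in control replicate 2. The call of Adgre1 ended without control replicate 1, control replicate 3, model replicate 2 or model replicate 3, at log2 fold changes of 0.81 to 1.22 over the livers left out. The 5 cholangiocyte markers summed to 11.3, 13.0 and 16.7 FPKM and to 46.2, 55.6 and 50.2 FPKM, with 2 of 5 called higher (Spp1, the most abundant, and Krt19). The 7 lymphocyte markers summed to 1.79, 3.27 and 2.49 FPKM and to 4.9, 6.77 and 5.99 FPKM, with Nkg7 the most abundant. Of these, Cd8a and Ms4a1 were called higher. The call of Cd8a ended without any 1 control liver or model replicate 2 or 3 (1.63 to 2.04 over the livers left out), and that of Ms4a1 without control replicate 1 or 3 or model replicate 1 or 2 (0.80 to 1.26). All 4 lists were higher in every model liver than in every control.

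Of the 5 neutrophil markers 2 were called higher (Retnlg and Csf3r), and the list, led by S100a8, summed to 22.0, 8.34 and 23.2 FPKM in the controls and 29.1, 74.0 and 46.3 FPKM in the model. Retnlg lost the call without any 1 control liver, model replicate 2 or 3, silibinin replicate 1 or phloridzin replicate 1 (1.09 to 1.77), and S100a9 was listed at 0 in control replicates 1 and 3 and model replicate 1. Of the 5 erythroid markers Slc4a1 was called lower, and the list, led by Hbb-bs, summed to 918, 829 and 791 FPKM in the controls and 642, 519 and 394 FPKM in the model. Of the 6 hepatocyte markers Cyp2e1 fell by 2.36 log2 units (limma, Benjamini-Hochberg adjusted p = 0.0016). Of the 5 endothelial markers 0 were called by limma or by voom, and 1 passed an unadjusted p of 0.05. The part of these cells in the rise of the proliferation genes was not tested.

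Silibinin against the model asks what this drug did to the genes that CCl4 had raised. Of the 36 genes 4 fell, while 4.19% of all genes tested were called lower. By limma 0 rose, with 0 higher at an unadjusted p under 0.05 and 0 higher by voom. All 4 were G1/S genes that promote entry into the cycle, Ccnd1, Ccne1, Ccne2 and Cdc25a. The median log2 fold change was -0.34 over the G1/S genes and 0.20 over the mitotic genes, with -0.19 over all genes tested. With median ratio scaling these medians were -0.13, 0.39 and 0.01, and 4 genes fell.

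Ccnd1 read 14.2, 10.3 and 10.6 FPKM in the silibinin livers (mean 11.7 ± 2.21, SD, n = 3). All 3 lay below the lowest model liver and above the highest control. Ccnd1 fell by 1.51 (log2 units, SE 0.32, limma, Benjamini-Hochberg adjusted p = 0.015). Cdc25a read 1.14, 2.02 and 1.17 FPKM with silibinin, below all model livers and just above the highest control. It fell by 1.55 (SE 0.26, limma, Benjamini-Hochberg adjusted p = 0.0048), and it was called without any 1 of the 12 livers, with adjusted p up to 0.025. Ccne1 read 0.711, 0.162 and 0.316 FPKM with silibinin, below every model liver and overlapping the controls. It fell by 2.07 (SE 0.51, limma, Benjamini-Hochberg adjusted p = 0.028). Ccne2 read 1.09, 0.603 and 0.781 FPKM with silibinin, below every model liver and partly within the range of the controls. It fell by 1.47 (SE 0.36, limma, Benjamini-Hochberg adjusted p = 0.029), but with only its highest transcript the log2 fold change was 0.45.

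Mitotic genes gave no call with silibinin in limma. Of the 20 genes 0 were called, 0 had an unadjusted p under 0.05 and voom called 0. With phloridzin replicate 1 left out, which enters this comparison only through the variance, limma again called 0 and 2 (Pkmyt1 and Ube2c) were lower at an unadjusted p under 0.05. Mki67 read 3.86, 2.22 and 1.8 FPKM with silibinin and Cdc20 13.3, 14.0 and 6.26 FPKM. For both genes replicates 1 and 2 were above every model liver, while replicate 3 was within the range of the model for Mki67 and below it for Cdc20. Their log2 fold changes were 0.54 (SE 0.71) and 0.18 (SE 0.75). Pkmyt1 and Ube2c stood at the low end of the mitotic list, with log2 fold changes of -1.17 (SE 0.54) and -0.74. Pkmyt1 read 1.57, 1.22 and 1.15 FPKM and Ube2c 3.48, 2.3 and 2.23 FPKM, both wholly below the model. At the high end stood Kif20a, listed at 0.347, 0.293 and 0.379 FPKM, and Ccnb2 with 11.9, 11.4 and 3.35 FPKM and a log2 fold change of 1.03 (SE 0.75). The difference between the response of G1/S and mitotic genes was not tested. Silibinin replicate 3 was the lowest of its group for the summed mitotic genes, at 40.7 FPKM beside 81.4 and 76.7 FPKM in replicates 1 and 2, and 803 of the genes tested (4.9%) were more than 2-fold below both other livers in it. The sums of several lists of cell type markers were also lowest in this liver. The 6 stellate cell and myofibroblast markers summed to 141, 132 and 55.2 FPKM in silibinin replicates 1, 2 and 3, with Col3a1 the most abundant at 72.9, 68.1 and 26.3 FPKM. The 5 cholangiocyte markers summed to 47.8, 48.7 and 24.1 FPKM, with Spp1 the most abundant at 43.3, 44.9 and 17.1 FPKM. No gene of either list was at 0 in a silibinin liver. The 6 hepatocyte markers, led by Alb, summed to 27933, 32481 and 17292 FPKM. The 6 macrophage markers, led by Lyz2, and the 5 endothelial markers, led by Kdr, had their lowest sums in replicate 3 too, at 258 and 19.2 FPKM. Medians over the genes of a list, as log2 difference from the control mean, did not all follow the sums. In replicates 1, 2 and 3 they were 0.85, 1.18 and 1.36 for macrophage and 1.48, 0.81 and 1.48 for cholangiocyte markers. For stellate cell and myofibroblast markers they were 1.61, 1.11 and 1.04, and for endothelial markers 0.17, 0.78 and -0.75. The lymphocyte markers, led by Nkg7, were lowest in replicate 1. The part of these cells in the levels of the proliferation genes was not tested.

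Single livers moved these counts. With 1 liver left out the 4 calls became 2 without model replicate 1, 1 without model replicate 2, 2 without model replicate 3, 1 without silibinin replicate 2 and 1 without silibinin replicate 3. Ccnd1 was not called without model replicate 2 (-1.51), silibinin replicate 2 (-1.42) or silibinin replicate 3 (-1.44), where its limma adjusted p reached 0.055. Ccne1 lost its call without model replicate 1 (-2.00), 2 (-2.18) or 3 (-2.03) or silibinin replicate 2 (-1.69) or 3 (-2.02). Ccne2 lost its call without the same livers, at -1.52, -1.44, -1.44, -1.29 and -1.45. Of the 45 cell type markers 0 were called by limma between silibinin and model, with 2 higher and 5 lower at an unadjusted p under 0.05 and 0 called by voom.

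**Figure D3:**
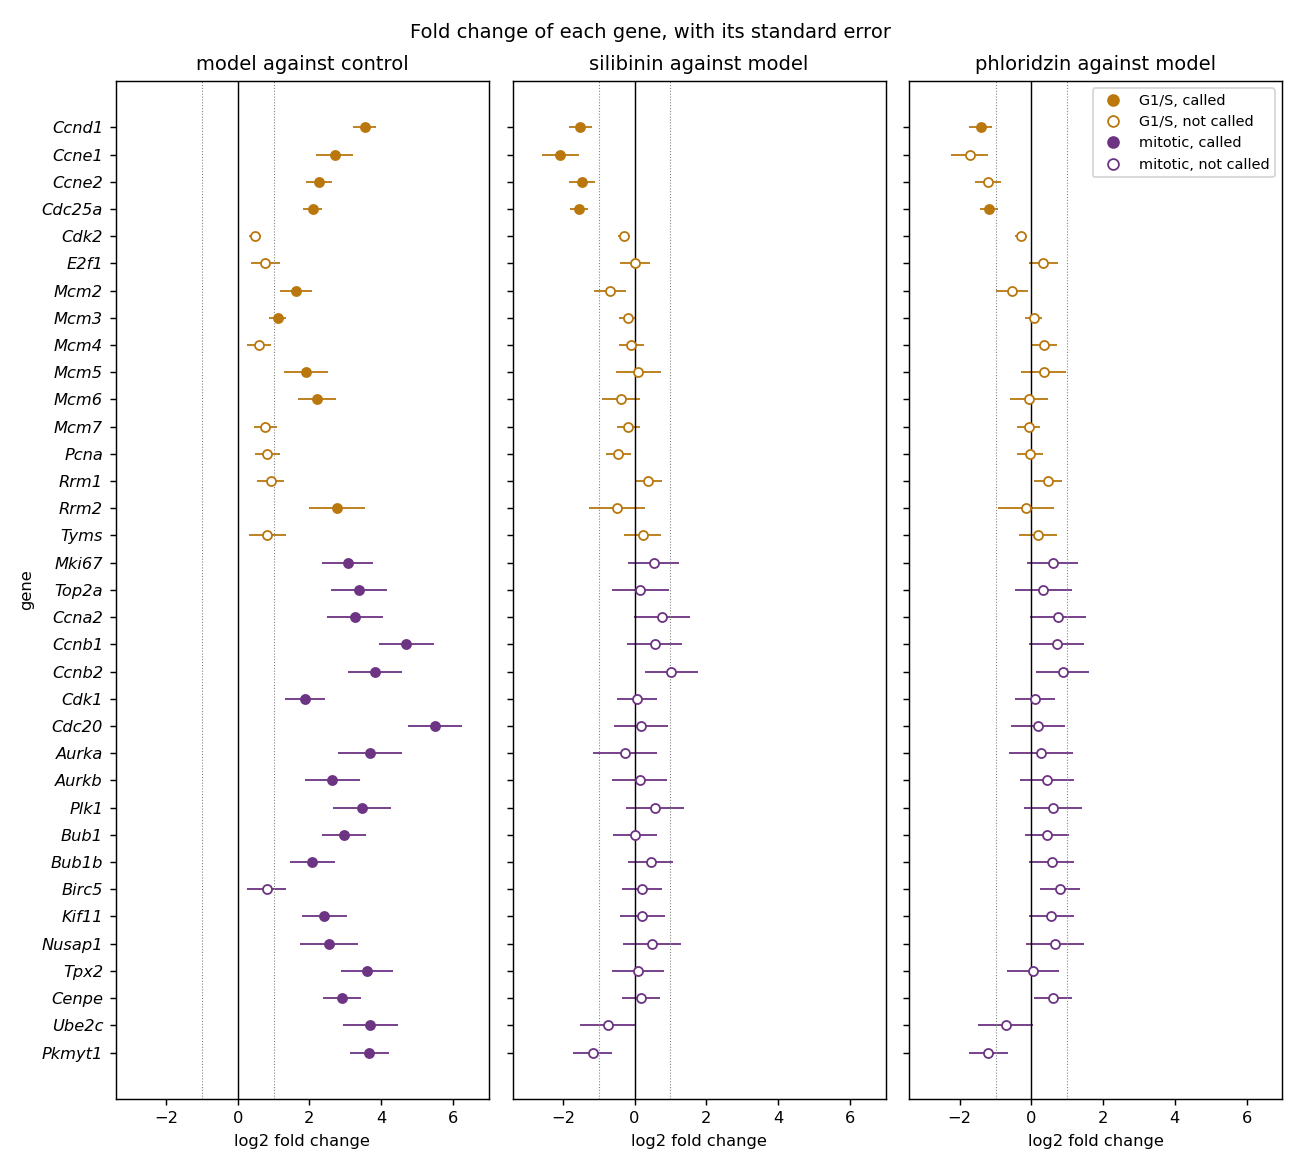
Log2 fold change (horizontal axis, with its standard error as bars) of 35 of the genes (vertical axis; Kif20a, listed at 0 in the controls, is left out) for the model against the control and each drug group against the model. Filled points were called, and the called genes with a drug are Ccnd1, Ccne1, Ccne2 and Cdc25a with silibinin and Ccnd1 and Cdc25a with phloridzin.

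Phloridzin against the model asks the same of the other drug. With all 3 phloridzin livers 2 of the 36 genes fell, while 3.99% of all genes tested were called lower. By limma 0 rose, with 1 higher at an unadjusted p under 0.05 and 0 higher by voom. The 2 were Ccnd1 and Cdc25a. The median log2 fold change was -0.08 over the G1/S genes and 0.57 over the mitotic genes, with -0.14 over all genes tested. With median ratio scaling the median of the G1/S genes changed sign to 0.10, that of the mitotic genes was 0.74 and 1 gene fell.

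Ccnd1 read 20.9, 13.3 and 6.84 FPKM in the phloridzin livers (mean 13.7 ± 7.04, SD, n = 3). Replicate 1 was the highest, and all 3 lay below the model and above the controls. Ccnd1 fell by 1.41 (SE 0.32, limma, Benjamini-Hochberg adjusted p = 0.022) with this liver and by 1.78 (SE 0.26, adjusted p = 0.0033) without it. Cdc25a read 2.06, 1.49 and 2.01 FPKM, also between the controls and the model without overlap with either. It fell by 1.18 (SE 0.26, limma, Benjamini-Hochberg adjusted p = 0.019) with phloridzin replicate 1 and by 1.26 (SE 0.29, adjusted p = 0.024) without it. Ccne1 read 0.951, 0.201 and 0.478 FPKM, below the model in all livers and overlapping the controls. Its log2 fold change was -1.72 (SE 0.51, limma, Benjamini-Hochberg adjusted p = 0.062) with replicate 1, and it fell by 2.17 (SE 0.5, adjusted p = 0.024) without it. Ccne2 read 1.56, 0.872 and 0.671 FPKM, again below every model liver. Its log2 fold change was -1.22 (SE 0.36, limma, Benjamini-Hochberg adjusted p = 0.063) with replicate 1, and it fell by 1.53 (SE 0.36, adjusted p = 0.024) without it. With its highest transcript alone the log2 fold change of Ccne2 was 0.58.

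The direction of the mitotic genes turned on phloridzin replicate 1. Of the 20 genes 0 were called by limma with all livers, 1 was higher (Kif20a) and 1 lower (Pkmyt1) at an unadjusted p under 0.05, and voom called 0. Mki67 read 10.4, 1.04 and 1.57 FPKM and Cdc20 49.8, 5.04 and 4.76 FPKM in the phloridzin livers. Replicate 1 was far above the model and replicate 2 below it for both genes, while replicate 3 was within the range of the model for Mki67 and below it for Cdc20. Ube2c read 13.8, 0.997 and 1.24 FPKM and Pkmyt1 3.42, 0.674 and 0.832 FPKM, in both cases with replicates 2 and 3 below every model liver. Rrm2 and Pcna, of the G1/S genes, showed the same spread with 36.1, 4.3 and 2.9 FPKM and 47.1, 18.7 and 13.3 FPKM. Kif20a read 6.73 and 1.86 FPKM in replicates 1 and 2 and was listed at 0 in replicate 3, and it was called without replicate 3 (log2 fold change 4.53).

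Without phloridzin replicate 1, 7 of the 36 genes fell, while 5.15% of all genes tested were called lower. The 7 were Ccnd1, Ccne1, Ccne2, Cdc25a, Mcm2, Pkmyt1 and Ube2c. The mitotic genes Pkmyt1 and Ube2c fell by 1.89 (SE 0.39, limma, Benjamini-Hochberg adjusted p = 0.015) and by 1.90 (SE 0.31, adjusted p = 0.0051), and Mcm2 fell by 1.18 (SE 0.27, adjusted p = 0.022). The median log2 fold change was then -0.57 over the G1/S genes, with 15 of 16 below 0, and -0.43 over the mitotic genes, with 18 of 20 below 0. The median of all genes tested was -0.23. The mean of phloridzin replicates 2 and 3 over the model mean had a median of 0.732 over the mitotic genes and 0.665 over the G1/S genes.

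Other single livers moved the count for phloridzin too. By limma it was 1 without model replicate 1, 0 without model replicate 2, 0 without model replicate 3 and 0 without phloridzin replicate 2. It was 3 without control replicate 2, where Ccne2 (-1.22) was called. With all livers voom called 4 genes lower, and 5 were lower at an unadjusted p under 0.05. Ccnd1 was not called without model replicate 1 (-1.46), 2 (-1.41) or 3 (-1.35) or phloridzin replicate 2 (-1.46) or 3 (-0.98), and Cdc25a was not called without model replicate 2 (-1.22), model replicate 3 (-1.07) or phloridzin replicate 2 (-1.03). Of the 45 cell type markers 0 were called by limma between phloridzin and model, with 1 higher and 2 lower at an unadjusted p under 0.05 and 0 called by voom. Without phloridzin replicate 1, Lrat fell by 1.04 (limma, Benjamini-Hochberg adjusted p = 0.015), and 1 marker was higher and 5 lower at an unadjusted p under 0.05.

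**Figure D4:**
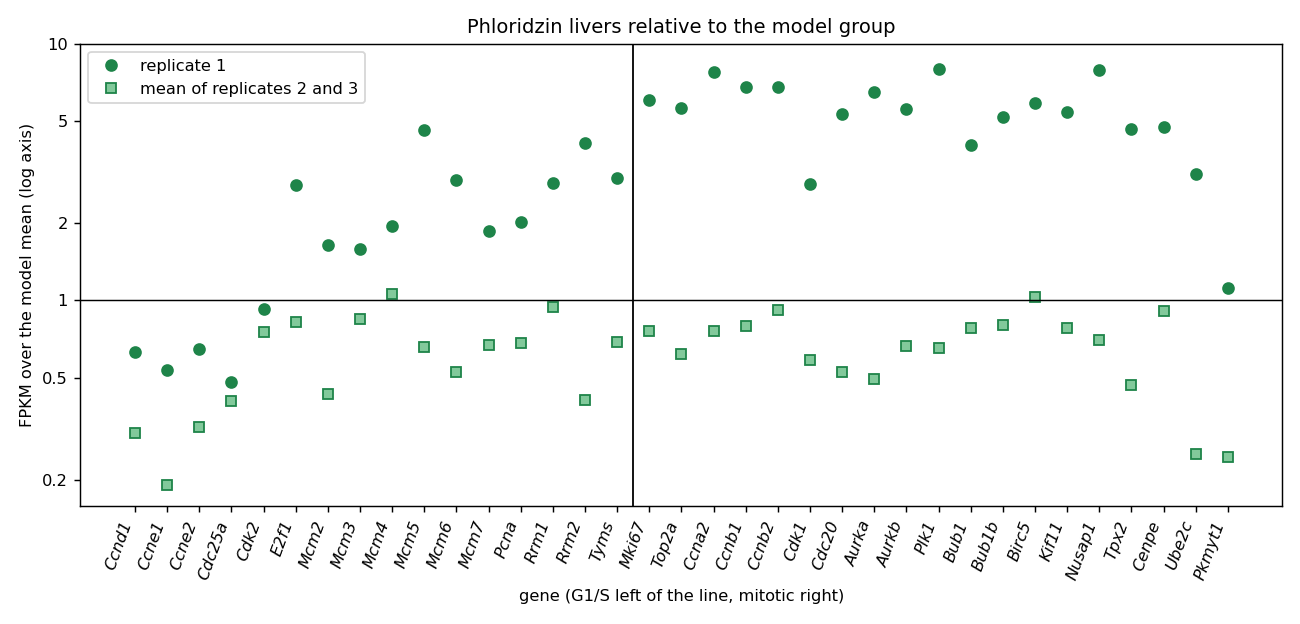
Level of each gene (horizontal axis, Kif20a left out) in phloridzin replicate 1 and in the mean of replicates 2 and 3, divided by the model mean, on a log axis (vertical). The mean of replicates 2 and 3 lies below 1 for 15 of 16 G1/S genes and 18 of 20 mitotic genes, Kif20a counted.

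Phloridzin against silibinin asks whether the drugs differed. By limma 0 of the 36 genes were called, against 0.0122% of all genes tested in either direction, with 0 at an unadjusted p under 0.05 and 0 by voom. The log2 fold changes ran from -0.17 (Ccnb2) to 1.33 (Kif20a), with Birc5 at 0.59 and Aurka at 0.54. The width of the 95% intervals differed between genes, from -0.38 to 0.38 for Cdk2 and -0.61 to 0.81 for Ccnd1 to -1.83 to 1.49 for Ccnb2 and -1.32 to 3.98 for Kif20a. Without phloridzin replicate 1, limma called 0 genes, 7 were lower at an unadjusted p under 0.05 (Ccna2, Cdc20, Mcm6, Mcm7, Plk1, Tpx2 and Ube2c) and the median log2 fold change of the 36 was -0.61. Voom was not run without this liver. Ccne1 and Ccne2, called against the model with silibinin and not with all phloridzin livers, were not called in this direct comparison of the drugs.

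Each drug group against the control asks how far the genes remained above livers that had no CCl4. These comparisons share the control livers with each other and with the model comparison. With silibinin 17 of 36 genes were called higher, while 5.84% of all genes tested were. They were Ccnd1 and 16 mitotic genes, with medians of 0.86 over the G1/S genes and 3.07 over the mitotic genes. The silibinin count was 23 without phloridzin replicate 1, while 7.04% of all genes tested were called higher. It then held 5 G1/S genes (Ccnd1, Mcm5, Mcm6, Rrm1 and Rrm2) and 18 mitotic genes, with Aurkb and Cdk1 added. With phloridzin 23 of 36 were called higher, while 7.71% of all genes tested were. They were 5 G1/S genes (Ccnd1, Mcm3, Mcm5, Mcm6 and Rrm1) and 18 mitotic genes, with medians of 1.06 and 3.49. Mcm3 (0.89) and Rrm1 (0.85) were not called without phloridzin replicate 1, Mcm6 not without any 1 control liver (1.99 to 2.20), and Mcm5 not without any 1 control, model or silibinin liver or phloridzin replicate 2 (2.21 to 2.51). Rrm1 was also not called without any 1 control or model liver or silibinin replicate 1 or 2 (1.35 to 1.42). The medians of all genes tested were 0.23 and 0.25. Under median ratio scaling 14 genes were called with silibinin and 17 with phloridzin. Against the control, 3 stellate cell, 2 macrophage and 3 cholangiocyte markers were also called higher with silibinin and 2 erythroid markers lower. With phloridzin 2 stellate cell, 3 macrophage, 2 lymphocyte, 1 cholangiocyte and 1 neutrophil markers were called higher, and 3 erythroid and 1 hepatocyte lower. Without phloridzin replicate 1 the 45 markers gave 8 higher and 3 lower with silibinin, and 5 and 2 with phloridzin. The part of these cells was not tested.

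Cdc20 had a log2 fold change against the control of 5.69 in the silibinin group (by limma, Benjamini-Hochberg adjusted p = 0.0031), of 5.70 in the phloridzin group (adjusted p = 0.0032) and, for reference, 5.51 in the model. Ccnb1 stood at 5.26 in the silibinin group (by limma, Benjamini-Hochberg adjusted p = 0.0046), 5.40 in the phloridzin group (adjusted p = 0.0037) and 4.70 in the model. Ccnd1 stood at 2.03 in the silibinin group (by limma, Benjamini-Hochberg adjusted p = 0.0063), 2.13 in the phloridzin group (adjusted p = 0.0045) and 3.54 in the model. The order for Ccnd1 was thus control, both drugs, model, while for Cdc20 and Ccnb1 the means of the CCl4 groups did not differ beyond their spread. Without phloridzin replicate 1 the phloridzin values were 4.60 for Cdc20, 4.37 for Ccnb1 and 1.75 for Ccnd1, and 19 genes were called, 3 of them G1/S and 16 mitotic, with medians of 0.71 and 2.60, while 4.26% of all genes tested were called higher.

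Called higher in each of the 3 CCl4 groups against the control were 17 of the 36 genes (47.2%), Ccnd1 and 16 mitotic genes, while 718 of the 16397 genes tested (4.38%) were. These became 19 of 36 (52.8%) and 3.29% of the genes tested when phloridzin replicate 1 was left out. The 3 comparisons share the control livers. These are limma calls, and by voom 0 of the 20 mitotic genes were called with silibinin against the control. Ccne1, Ccne2, Cdc25a, Mcm2 and Rrm2 were called in the model and in neither drug group. Cdk2, E2f1, Mcm4, Mcm7, Pcna, Tyms, Birc5 and Kif20a were called in no comparison. Against the control, Rrm2 with silibinin (2.27) was called without phloridzin replicate 1, and Rrm2 (3.30), Mcm2 (1.60) and Pcna (1.17) with phloridzin were called without phloridzin replicate 3.

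Counts against the control moved with single livers. For silibinin the 17 became 8 without control replicate 1, 7 without control replicate 2, 11 without control replicate 3, 13 without any 1 model liver, 5 without silibinin replicate 1, 5 without silibinin replicate 2, 15 without silibinin replicate 3 and 23, 15 and 19 without phloridzin replicates 1, 2 and 3, and voom called 1. For phloridzin the 23 became 12, 14 and 16 without control replicates 1, 2 and 3, 19 without any 1 model liver, 20, 20 and 21 without silibinin replicates 1, 2 and 3 and 19, 22 and 27 without phloridzin replicates 1, 2 and 3, and voom called 5. Cdc20, Ccnb1 and Ccnd1 were called by limma against the control with every liver left out in turn, for both drugs. Voom on all livers called 1 of 16 G1/S and 0 of 20 mitotic genes with silibinin, so neither Cdc20 nor Ccnb1. With phloridzin voom called 2 of 16 and 3 of 20.

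Promoters of RefSeq were found for 28 of the 36 genes, 29 promoters in all since Mcm7 has 2. Missing were Pkmyt1, Ccne2, Kif20a, Ccna2, Tpx2, Mcm4, Ccnd1 and Aurkb. An E2F-like word was TTCCCGC or TTCGCGC or TTGCCGC or TTGGCGC, the NF-Y-like word was CCAAT, and a CHR word was TTTGAA or TTCGAA. Each was sought on both strands, and matches may share bases, as do the 2 E2F-like words of Cdc25a on opposite strands. TTCGAA reads the same on both strands and was counted a single time. E2F-like words were in 9 of 14 G1/S promoters (64.3%) and 3 of 15 mitotic promoters (20%), against 15.4% of the 14051 promoters of tested genes and 9.57% of all 32851. CHR words were in 2 of 14 G1/S promoters (14.3%) and 11 of 15 mitotic promoters (73.3%), against 14.4% and 19.2%. CCAAT was in 11 of 14 (78.6%) and 13 of 15 (86.7%), against 37.5% and 37.4%. CCAAT and a CHR word together were in 14.3% of the G1/S and 73.3% of the mitotic promoters, against 5.83% of tested and 7.52% of all promoters. Among the promoters printed above, Mcm6 held 5 E2F-like words and 2 CCAAT, Cdc25a 2 and 2, and Top2a 6 CCAAT and 4 CHR words. The median GC content was 57.5% for G1/S, 58.0% for mitotic, 60% for tested and 52.7% for all promoters. A match describes the letters and is neither a bound site nor a cause of the changes.

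**Figure D5:**
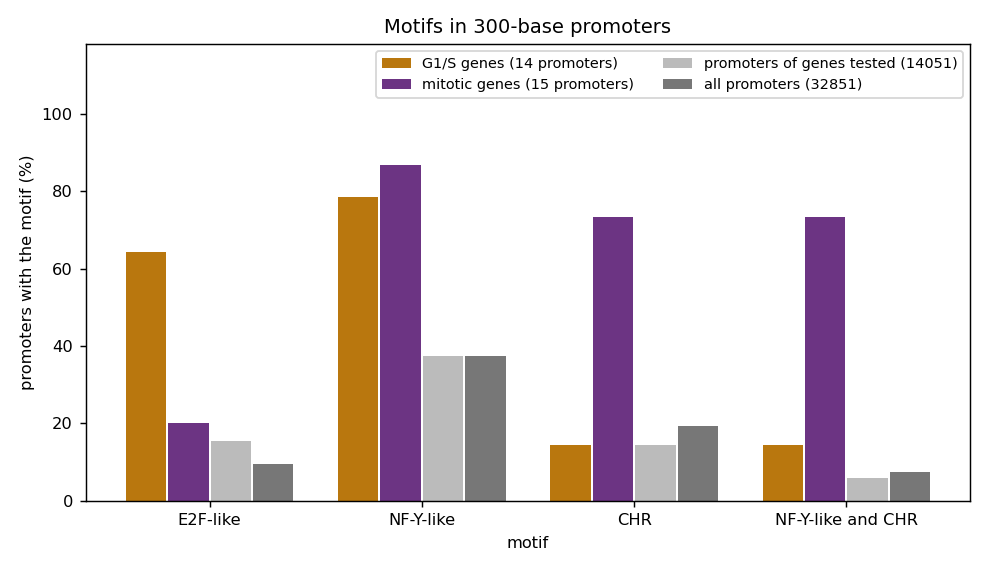
Percent of 300-base promoters (vertical axis) that hold each motif (horizontal axis) for G1/S genes, mitotic genes, tested genes and all promoters. E2F-like words are most frequent in the G1/S promoters (64.3%) and CHR words in the mitotic promoters (73.3%).

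Other genes of the same stages were read from lists of textbook roles. Of 43 tested other G1/S genes 12 rose in the model and 2 fell, with a median log2 fold change of 0.73. Over all genes tested 17.9% were called higher and 1.64% lower, with a median of 0.47. Dbf4, the activator of the Cdc7 kinase at replication origins, rose by 2.76, E2f7, an E2F repressor, by 2.06 and Uhrf1, which guides maintenance methylation of DNA, by 1.96. Mcm10 and Tk1 fell by 1.02 each on the log2 scale. Of 48 other mitotic genes 33 rose in the model, with a median of 2.19, among them Pbk (4.08), Ckap2 (3.99), Hmmr (3.92), Prc1 (3.87) and Racgap1 (3.53). By voom 12 of the other G1/S genes and 15 of the other mitotic genes were called higher. Foxm1, for the factor that turns on mitotic genes, rose by 2.82 log2 units (limma, Benjamini-Hochberg adjusted p = 0.0095).

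Against the model, 0 of the 48 other mitotic genes were called by limma with either drug. At an unadjusted p under 0.05 the counts were 0 with silibinin and 2 with phloridzin, and voom called 0 with both. Of all genes tested, limma called 4.19% lower with silibinin and 3.99% lower with phloridzin. Of the other G1/S genes E2f7 fell by 1.36 (limma, Benjamini-Hochberg adjusted p = 0.04) with silibinin, and Tk1 rose by 1.44 (adjusted p = 0.013) with phloridzin. Tk1 was not called without phloridzin replicate 2 (1.12 to 1.64 over the livers left out), and E2f7 not without control replicate 1 or 3, any 1 model liver, silibinin replicate 1 or 3 or phloridzin replicate 2 (-1.65 to -0.97). Against the control 4 other G1/S and 25 other mitotic genes were called higher with silibinin, while 5.84% of all genes tested were. With phloridzin 5 and 31 were, while 7.71% of all genes tested were. The same counts without phloridzin replicate 1 were 7 and 36 with silibinin and 4 and 25 with phloridzin, and in the model 13 and 39 were called higher. The shares of all genes tested were then 7.04% with silibinin and 4.26% with phloridzin. In that fit Nek2 was called higher with silibinin than in the model (by 1.07, limma, Benjamini-Hochberg adjusted p = 0.025). With phloridzin against the model Ncaph (-1.21), Sgo1 (-1.24), Dbf4 (-1.07) and Rbl1 (-1.08) then fell and Tk1 rose by 1.61 (limma, Benjamini-Hochberg adjusted p up to 0.028), and the median over the 48 other mitotic genes was -0.43. The other mitotic genes summed to 489, 103 and 89.3 FPKM in the 3 phloridzin livers, with Cks2 the most abundant, and none was at 0.

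Inhibitors of cyclin-dependent kinases were a list of 8. In the model Cdkn1a, for p21, rose by 1.24 (limma, Benjamini-Hochberg adjusted p = 0.025) and Cdkn2b, listed at 0 in all controls, was called higher at 0.223, 0.658 and 0.624 FPKM. Cdkn1a read 9.76, 19.2 and 12.9 FPKM in the controls, 27.8, 32.1 and 36.0 FPKM in the model, 15.6, 16.4 and 7.56 FPKM with silibinin and 16.4, 9.6 and 7.43 FPKM with phloridzin. Both drug groups lay below the model and overlapped the controls. It fell by 1.34 in the silibinin group (by limma, Benjamini-Hochberg adjusted p = 0.041) and by 1.58 in the phloridzin group (adjusted p = 0.023). Cdkn2c, for p18, read 2.11, 1.78 and 2.08 FPKM in the controls, 2.93, 2.55 and 3.47 FPKM in the model, 6.94, 9.62 and 7.23 FPKM with silibinin and 10, 6.98 and 5.2 FPKM with phloridzin. Every drug liver was above every model liver. Cdkn2c rose against the model by 1.38 in the silibinin group (by limma, Benjamini-Hochberg adjusted p = 0.0056) and by 1.24 in the phloridzin group (adjusted p = 0.0097), and limma called it whichever of the 12 livers was left out. By voom 0 of the 8 inhibitors, Cdkn2c included, were called higher against the model with either drug, and 1 was called lower with each. Cdkn1a lost its call in the model without control replicate 1 or 3 or model replicate 2 or 3 (1.01 to 1.49 over the livers left out). With silibinin it lost the call without control replicate 3, any 1 model or silibinin liver or phloridzin replicate 2 (-1.54 to -0.99), and with phloridzin without any 1 model liver or phloridzin replicate 2 or 3 (-1.90 to -1.33). With phloridzin, Cdkn1a fell by 1.90 and Cdkn2c rose by 1.00 when phloridzin replicate 1 was left out.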

How the data were processed

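The authors sequenced RNA of 12 livers (bcl2fastq, FastQC 0.11.5, HISAT2 2.1.0 on mm10, StringTie 1.3.3b, DESeq 1.28.0) and deposited FPKM for 169430 transcripts (82136 Ensembl, 68303 NONCODE and 18991 assembled). FPKM of transcripts with an Ensembl gene were summed per gene, with symbols from GENCODE M21 by gene identifier, since 678 identifiers carried another symbol in the table. The 36 genes have 153 transcripts. Of these genes, 17 overlap another annotated gene and 4 (Pcna, Tyms, Ccnb1 and Ccnb2) have a named pseudogene, and what these add to the levels was not tested. Fragment totals were recovered from the smallest steps of FPKM over transcripts of at least 1500 bases, of which 98.6% to 98.8% gave whole numbers within 0.05.

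Limma 3.58.1 (R 4.3.3 with the data.table package, version 1.17.8) with a trend was fitted to log2(FPKM + 0.1) of 16397 genes with a mean of at least 0.1 FPKM, as 1 fit of 4 groups with 6 two-sided comparisons, each Benjamini-Hochberg adjusted over all genes tested. Summaries were made in Python 3.11.15 with pandas 2.3.3, scipy 1.17.1 and numpy 2.4.6, and plots with matplotlib 3.10.9. The fit was checked on simulated data. Genes named were those called in any comparison, the 3 largest rises and falls in each, and Ccnd1, Ccne1, Pcna, Mcm2, Rrm2, Mki67, Top2a, Cdk1, Ccnb1 and Birc5, and from other lists up to 8 called genes and the most abundant marker of each cell type. Other values given by liver were chosen after they were seen. The members and lists were chosen with earlier results of these data known. Alternatives were pseudocounts of 1 and 0.01 FPKM, a filter at 0.5 FPKM or none, median ratio scaling, only the compared groups, a replicate block, no fold cutoff, protein-coding transcripts, the highest transcript, voom, each liver left out and, chosen after seeing the data, no phloridzin livers.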

Additional observations from a re-analysis of the deposited data

How the results depend on the processing

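Of 141 counts recomputed under alternatives, 110 were within 1.5 times the reported count and 31 were not. Of the log2 fold changes of single genes recomputed because they were named, 2332 kept their direction and side of the threshold, 359 lost a call, 21 gained 1 and 44 turned direction. With a pseudocount of 1 FPKM the counts were 13 (model against control), 1 (phloridzin against model), 4 (silibinin against control) and 6 (phloridzin against control), and with voom 14, 4, 1 and 5. With the highest transcript they were 18, 1, 9 and 12, and with only the compared groups 1 for phloridzin against model and 1 for phloridzin against control. Scaling gave 1 for phloridzin against model, and the replicate block, under which replicate numbers are treated as paired although same-number livers had correlations of -0.066 to 0.065, gave 26 (model against control), 4 and 3 (each drug against model), 0, 14 and 20. Coding transcripts gave 3 for phloridzin against model and 13 for silibinin against control, no filter 13 and without phloridzin livers 24 for silibinin against control. With 1 liver left out the counts ran from 21 to 27 (model against control), 1 to 4 (silibinin against model), 0 to 7 (phloridzin against model), 5 to 23 (silibinin against control) and 12 to 27 (phloridzin against control). Between the drugs each of these fits gave 0 calls, voom on all livers included. At an unadjusted p under 0.05 the count was 0 except without silibinin replicate 2 (1 higher), phloridzin replicate 1 (7 lower) and phloridzin replicate 3 (3 higher). With the highest transcript Ccne2 turned to -0.65, 0.45 and 0.58 (model against control and each drug against model), and Kif20a to -0.10 and Tpx2 to 1.06 between the drugs. Scaling turned Pcna to 0.14 and Rrm2 to 0.03 for phloridzin against model and Cdk2 to -0.08 and -0.11 for silibinin and phloridzin against control, where coding transcripts gave -0.07 and -0.01. Between the drugs, a pseudocount of 1 FPKM turned Tyms to 0.02 and Tpx2 to 0.09, coding transcripts Tpx2 to 0.03 and voom Kif20a to -0.23. Over all 36 genes, leaving out some 1 liver turned the direction of 10 for silibinin against model, 25 for phloridzin against model (21 without phloridzin replicate 1) and 33 between the drugs (28 without that liver). Of the genes named for a comparison, left-out livers turned, for silibinin against model, Cdk1 (-0.17 to 0.43) and Birc5 (-0.11 to 0.49). Cdc20, at 0.18 with all livers, turned without silibinin replicate 2. For phloridzin against model left-out livers turned Pcna (-0.56 to 0.34), Rrm2 (-1.26 to 0.54), Mki67 (-0.37 to 1.23) and Top2a (-0.75 to 1.09). They also turned Ccnb1 (-0.32 to 1.35), Ccnb2 (-0.09 to 1.49) and Cdk1 (-0.64 to 0.53). Cdc20 turned from 0.19 with all livers to -0.92 without phloridzin replicate 1. Between the drugs left-out livers turned Tyms (-0.74 to 0.43), Ccnb2 (-1.13 to 0.46), Aurka (-0.66 to 1.24), Birc5 (-0.16 to 1.01) and Tpx2 (-1.11 to 0.51). Without phloridzin replicate 1, Ccnd1 turned to -0.27, Ccne1 to -0.1, Ccne2 to -0.06 and Cdk2 to -0.1. Cdc20, Mcm6, Mcm7, Plk1 and Ube2c turned without that liver as well. Ccna2 turned without silibinin replicate 1 or 2 or phloridzin replicate 2 or 3. The cause was not tested. The size of change that 3 livers a group could detect was not computed.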

Other observations

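Growth factors of the liver and their receptors, 18 genes of which 17 were tested, held 7 that rose in the model and 4 that fell with each drug against the model (Areg, Btc, Ereg and Myc), the 4 falls with or without phloridzin replicate 1. Over all genes tested 17.9% were called higher in the model, and 4.19% and 3.99% lower with silibinin and phloridzin against the model. Myc, a transcription factor that promotes growth, read 0.94, 0.45 and 0.959 FPKM in the controls, 8.93, 9.9 and 8.54 FPKM in the model, 1.51, 1.39 and 2.05 FPKM with silibinin and 2.01, 1.3 and 2.49 FPKM with phloridzin. Every drug liver lay between the controls and the model. Myc rose by 3.44 in the model (limma, Benjamini-Hochberg adjusted p = 7.3e-05) and fell by 2.41 with silibinin (adjusted p = 0.0009) and by 2.22 with phloridzin (adjusted p = 0.0015) on the log2 scale.

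Areg, for the epidermal growth factor receptor ligand amphiregulin, read 1.94, 2.73 and 2.94 FPKM in the model and was listed at 0 in the other 9 livers. Ereg, for epiregulin, read 0.138, 0.192 and 0.115 FPKM in the controls, 0.579, 0.664 and 0.619 FPKM in the model, 0.0772, 0.0306 and 0.123 FPKM with silibinin and 0.019, 0.125 and 0.123 FPKM with phloridzin. The drug livers overlapped the controls and lay below the model. Ereg rose by 1.55 in the model (limma, Benjamini-Hochberg adjusted p = 0.0046) and fell by 2.06 (adjusted p = 0.0028) and 1.99 (adjusted p = 0.0039) with silibinin and phloridzin. Btc, for betacellulin, rose by 2.32 in the model (limma, Benjamini-Hochberg adjusted p = 0.00079) and fell by 1.61 (adjusted p = 0.013) and 1.55 (adjusted p = 0.017). Btc was not called for silibinin without model replicate 2, nor for phloridzin without model replicate 2 or 3 or phloridzin replicate 2 or 3, with log2 fold changes of -1.79 to -1.34 and -1.74 to -1.41 over the livers left out. Myc and Ereg were called in these 3 comparisons whichever of the 12 livers was left out. Areg was too, but it passed the filter only through the model livers. The size of its fold change rests on the 0.1 FPKM added before the logarithm. Hbegf, Ccn1 and Tgfa rose by 1.34, 2.96 and 1.16 in the model. The call of Ccn1 ended without control replicate 3, any 1 model or silibinin liver or phloridzin replicate 2 (1.76 to 3.63), and that of Tgfa without control replicate 3 or any 1 model, silibinin or phloridzin liver (0.54 to 1.47).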
